A study of Mus musculus with 17 samples.

Results

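The genes described are 44 protein-coding genes of DNA replication and mitosis in C2C12 cells, a mouse myoblast line that divides in culture and can fuse into muscle fibres. They were chosen by symbol from the table of raw counts, 20 of them as S-phase genes and 24 as G2/M genes, and all 44 were found among the 15062 genes of the table. RNA was measured by sequencing of polyadenylated RNA in 17 libraries from 6 groups. The study asks what the fusions of SRF seen in myoid tumours do as transcription factors. SRF (serum response factor) is a DNA-binding transcription factor. The control group, pMSCV, carried the construct pMSCV without an insert named in the labels. The SRF group expressed SRF, and the 4 fusion groups expressed SRF joined to FOXO1 (SRF-FOXO1), to ICA1L (SRF-ICA1L), to PDGFRB (SRF-PDGFRB) or to RELA (SRF-RELA). Each group had 3 libraries except SRF-PDGFRB, which had 2. All groups share the C2C12 background and, per the labels' protocols, growth in DMEM with 10% fetal bovine serum, and no time point is given. The labels do not say whether a line was 1 clone or a pool, nor whether replicates came from separate cultures, so p-values measure the spread between these libraries, which may in part be technical.

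Library totals ran from 20901442 to 23543734 counts. Srf itself lay between 678 and 1673 CPM (counts scaled to a common library size) in the SRF libraries and between 66.6 and 93.8 CPM in pMSCV. The ranges were 71.8 to 105 CPM in SRF-FOXO1, 121 to 279 CPM in SRF-ICA1L, 70.5 to 81.4 CPM in SRF-PDGFRB and 85.0 to 155 CPM in SRF-RELA; how far reads of an introduced construct count towards the mouse gene is not known. Of the defining markers, 7 of 7 myoblast genes were in the table and 5 of them exceeded 1 CPM in every library. None of 3 adipocyte markers was in the table, and 1 of 4 epithelial and 2 of 4 endothelial markers were. The summed level of those 2 endothelial markers stayed between 0.0457 and 2.81 CPM. Of 4 blood markers 3 were in the table, 1 of them above 1 CPM in every library, with a summed level of 4.54 to 22.4 CPM. Fibroblast and smooth muscle or pericyte markers were expressed (5 of 6 and 4 of 5 in the table), with summed levels of 66.3 to 1928 CPM and 280 to 3963 CPM.

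A dividing cell first licenses its replication origins by loading the MCM helicase, fires them in S phase, and then builds a spindle and separates its chromosomes in mitosis. The 2 gene classes are switched on in that order. S-phase genes are known targets of E2F factors, which Rb-family proteins hold in check until cyclin D and cyclin E kinases act. G2/M genes are known targets of the MuvB complex with B-Myb and FOXM1, which binds promoters through a short element called the CHR (cell cycle genes homology region), often with CCAAT boxes bound by NF-Y. Myoblasts leave the cell cycle when they differentiate, and both classes are then shut off. In bulk RNA a smaller share of dividing cells and less RNA per dividing cell cannot be told apart.

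The class split is visible in the promoters. RefSeq promoter windows (GRCm38.p6, from 250 bases before to 50 bases after a start) were matched by symbol for 37 of the 44 genes, giving 20 windows of S-phase genes and 21 of G2/M genes. The CHR, searched as TTTGAA on both strands, was in 16 of 21 G2/M windows (76.2%), in 3 of 20 S-phase windows (15%) and in 17.9% of all 32851 windows. A CCAAT box, searched as CCAAT on both strands, was in 19 of 21 G2/M and 13 of 20 S-phase windows and in 37.4% of all windows. Both elements were together in 16 of 21 G2/M windows, against 2 of 20 S-phase windows and 6.95% of all. An E2F site, searched on both strands as TTTCCCGC, TTTGGCGC, TTTCGCGC or TTTGCCGC, was in 7 of 20 S-phase windows, 1 of 21 G2/M windows and 2.27% of all. The CArG box, the element that SRF binds, was in 1 of 20 S-phase windows, 0 of 21 G2/M windows and 1.63% of all. A match is a stretch of letters and does not show that a factor binds there. The windows of 4 genes are given to show the contrast. Each is 120 bases, read 5′ to 3′ on the strand of the gene and ending at the base before the RefSeq start, with capitals for the CHR (TTTGAA, or TTCAAA on the other strand), the CCAAT box (CCAAT or ATTGG) and the E2F site.
Cdk1, chr10:69352913-69353032, minus strand: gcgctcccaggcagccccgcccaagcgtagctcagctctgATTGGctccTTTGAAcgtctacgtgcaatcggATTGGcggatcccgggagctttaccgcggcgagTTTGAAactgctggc
Cdc20, chr4:118437344-118437463, minus strand: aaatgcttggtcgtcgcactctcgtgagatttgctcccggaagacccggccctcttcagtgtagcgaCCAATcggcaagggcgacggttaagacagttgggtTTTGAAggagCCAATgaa
Top2a, chr11:99024190-99024309, minus strand: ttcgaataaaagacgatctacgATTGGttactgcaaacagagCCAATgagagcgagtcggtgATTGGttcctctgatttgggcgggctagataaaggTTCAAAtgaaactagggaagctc
Mcm6, chr1:128359706-128359825, minus strand: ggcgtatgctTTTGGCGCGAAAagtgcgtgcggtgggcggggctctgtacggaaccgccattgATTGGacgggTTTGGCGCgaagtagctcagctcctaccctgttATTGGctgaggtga
Each of the 3 G2/M windows holds a CHR between 10 and 23 bases before the start. Their CCAAT boxes lie upstream of it, and Cdc20 has another 4 to 8 bases before the start. In the Mcm6 window the first run of capitals is a pair of E2F sites on opposite strands that overlap, a further site lies 40 to 47 bases before the start, and the other capitals are CCAAT boxes.

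Levels of the genes are compared per kilobase of exon (GENCODE M21, GRCm38), as the mean CPM per kb over the 17 libraries. Among S-phase genes Rrm2 (162 CPM per kb) and Pcna (113) stood highest and Fen1 (1.82) lowest. Among G2/M genes the range was narrower, from Ttk (10.4) to Top2a (77.1), with Cdc20 (74.2), Mki67 (68.2) and Ccna2 (67.7) near the top. Some genes share exon sequence with another gene, mostly on the other strand, and whether counting used the strand is not stated: Fen1 for 84.2% of its exonic bases, Gins2 for 67.3%, Kif20a for 29.3%, Ube2c for 22.8%, Ccne2 for 17.4%, Mcm7 for 12.6% (3.89% of them on its own strand, where microRNA genes lie within it), Ccna2 for 12.5% and Prc1 for 11.1%. Their levels are uncertain to that extent.

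In most genes the lowest library was a control library, replicate 2 of pMSCV. It was the lowest of the 17 for 38 of the 44 genes (16 of 20 S-phase, 22 of 24 G2/M). A class level was taken for each library as its fold of the geometric mean over 17 libraries, averaged over the genes of the class on the log2 scale. In pMSCV replicate 2 it was 0.501 for the S-phase class and 0.452 for the G2/M class, while the other pMSCV libraries lay at 1.09 and 1.26 (S-phase) and at 1.02 and 1.44 (G2/M). SRF-RELA replicate 2 came next, at 0.635 and 0.627. SRF replicates lay within 1.24 to 1.26 for S-phase genes and 1.15 to 1.48 for G2/M genes. SRF-FOXO1 libraries lay within 0.763 to 1.02 and 0.809 to 0.958, and SRF-ICA1L within 0.811 to 1.24 and 0.778 to 1.41. The SRF-PDGFRB pair was at 0.885 and 1.01 for S-phase genes and at 0.757 and 1.21 for G2/M genes. Every SRF-FOXO1 library was therefore below every SRF library in both classes, and the pMSCV and SRF-RELA ranges enclosed those of SRF-FOXO1 and SRF-ICA1L.

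**Figure D1:**
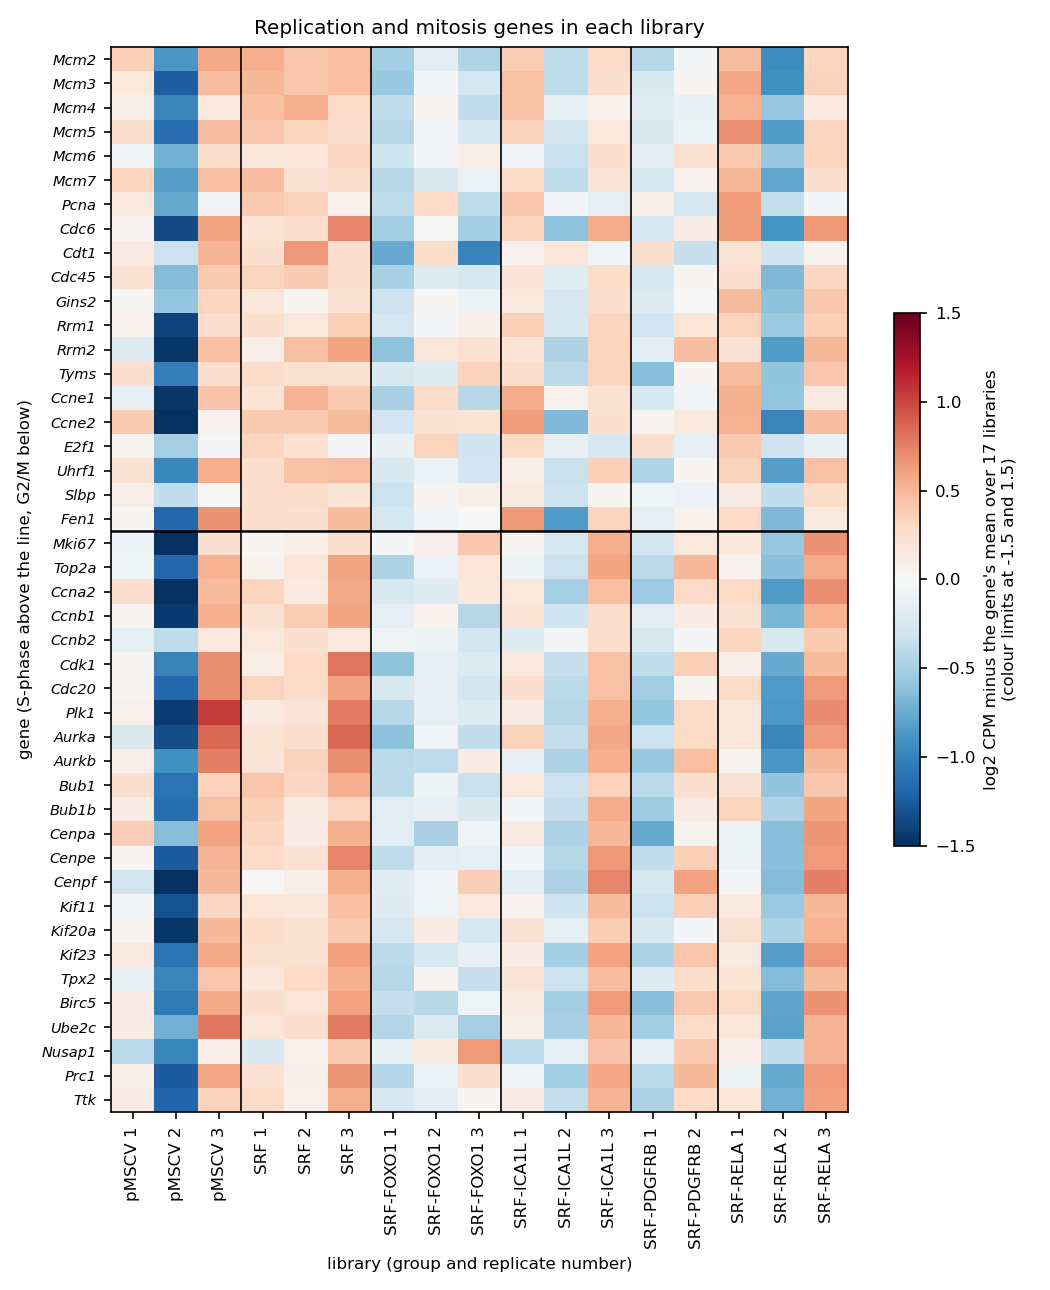
Heat map of the 44 genes (rows, S-phase above the line) in the 17 libraries (columns, by group and replicate number); colour is log2 CPM minus the gene's mean over the libraries, limited to -1.5 and 1.5. The blue column at pMSCV replicate 2 runs through both classes, and it is the lowest library for 38 of 44 genes.

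**Figure D2:**
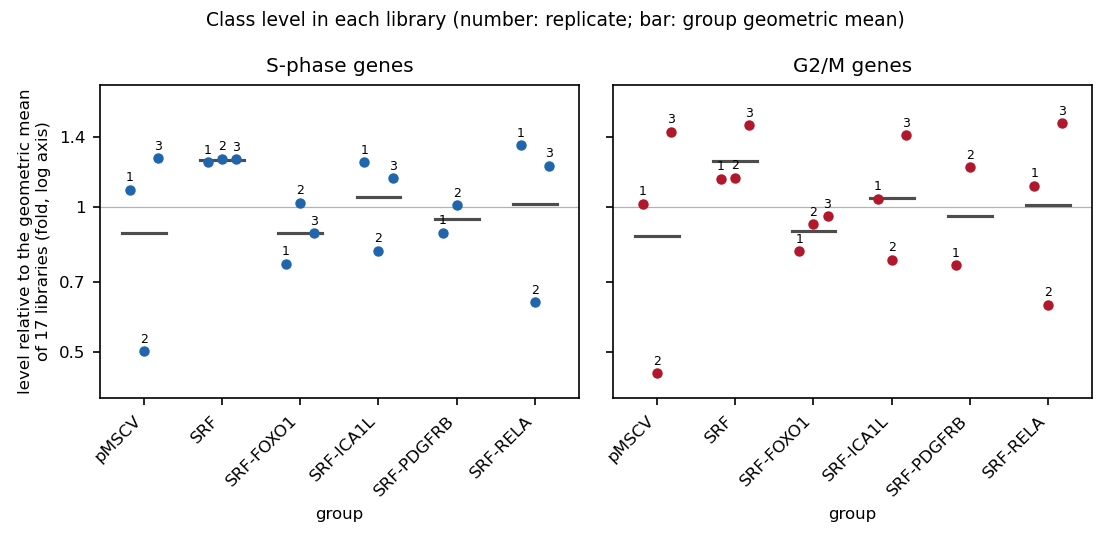
Level of the S-phase class (left) and the G2/M class (right) in each library, as fold of the geometric mean over 17 libraries on a log axis; points are libraries with their replicate number, bars the group geometric mean. pMSCV replicate 2 sits at 0.501 and 0.452, and the 3 SRF libraries lie within 1.24 to 1.26 for S-phase genes.

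Values of each gene follow in CPM, in the order of replicates 1, 2 and 3 (1 and 2 for SRF-PDGFRB). The helicase that unwinds DNA at the fork is built from Mcm2 to Mcm7. Mcm2 was at 224, 95.6 and 259 CPM in pMSCV, 256, 235 and 241 in SRF, 123, 156 and 129 in SRF-FOXO1, 226, 135 and 214 in SRF-ICA1L, 131 and 172 in SRF-PDGFRB, and 242, 90.9 and 219 in SRF-RELA. Mcm3 was at 224, 84.8 and 277 CPM in pMSCV, 283, 267 and 275 in SRF, 135, 196 and 167 in SRF-FOXO1, 272, 155 and 236 in SRF-ICA1L, 172 and 203 in SRF-PDGFRB, and 300.4, 107 and 254 in SRF-RELA. Mcm4 was at 226, 108 and 236 CPM in pMSCV, 291, 312 and 260.0 in SRF, 164, 219 and 166 in SRF-FOXO1, 289, 198 and 224 in SRF-ICA1L, 188 and 198 in SRF-PDGFRB, and 306, 144 and 237 in SRF-RELA. For these 3 subunits every SRF-FOXO1 library lay below every SRF library. Mcm5 was at 199, 76.2 and 232 CPM in pMSCV, 222, 212 and 200.03 in SRF, 125, 164 and 144 in SRF-FOXO1, 214, 138 and 188 in SRF-ICA1L, 145 and 159 in SRF-PDGFRB, and 269, 94.2 and 210.2 in SRF-RELA. Mcm6 was at 243, 153 and 301 CPM in pMSCV, 282, 284 and 311 in SRF, 204, 241 and 269 in SRF-FOXO1, 242, 199 and 297 in SRF-ICA1L, 222 and 293 in SRF-PDGFRB, and 329, 169 and 314 in SRF-RELA. Mcm7 was at 212, 96.2 and 233 CPM in pMSCV, 234, 198 and 205 in SRF, 127, 146 and 159 in SRF-FOXO1, 205, 131 and 194 in SRF-ICA1L, 145 and 176 in SRF-PDGFRB, and 238, 99.3 and 200.2 in SRF-RELA. The same separation of SRF-FOXO1 from SRF held for these subunits. Replicate 2 of pMSCV and replicate 2 of SRF-RELA held the lowest pair of values for all 6 subunits, and the SRF libraries kept within a narrow band, for Mcm2 at 244 ± 11.2 CPM against 193 ± 86.2 CPM in pMSCV (mean ± SD, n = 3 each).

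The helicase is loaded by Cdc6 and Cdt1 and activated by Cdc45 and the GINS complex, of which Gins2 is a subunit. Cdc6 was at 48.3, 18.3 and 70.3 CPM in pMSCV, 54.0, 56.0 and 77.5 in SRF, 32.9, 46.9 and 32.7 in SRF-FOXO1, 59.1, 30.9 and 68.9 in SRF-ICA1L, 39.2 and 50.6 in SRF-PDGFRB, and 72.3, 25.2 and 73.6 in SRF-RELA. Cdt1 was at 81.8, 59.6 and 106 CPM in pMSCV, 88.1, 117 and 89.5 in SRF, 44.1, 90.1 and 37.2 in SRF-FOXO1, 78.0, 84.3 and 71.5 in SRF-ICA1L, 88.1 and 58.9 in SRF-PDGFRB, and 85.9, 60.9 and 77.5 in SRF-RELA. Cdt1 had its own order: SRF-FOXO1 replicates 3 and 1 were the lowest libraries, and replicate 2 was the highest of its group in SRF, SRF-FOXO1 and SRF-ICA1L but the lowest in pMSCV and SRF-RELA. Cdc45 was at 59.3, 32.5 and 67.0 CPM in pMSCV, 64.4, 66.7 and 61.1 in SRF, 36.5, 44.7 and 43.6 in SRF-FOXO1, 58.6, 45.2 and 61.8 in SRF-ICA1L, 43.2 and 52.4 in SRF-PDGFRB, and 61.1, 32.3 and 63.6 in SRF-RELA. Gins2 was at 28.6, 18.9 and 35.4 CPM in pMSCV, 32.0, 28.8 and 32.9 in SRF, 22.9, 28.7 and 26.8 in SRF-FOXO1, 31.5, 23.7 and 33.6 in SRF-ICA1L, 24.8 and 28.2 in SRF-PDGFRB, and 39.4, 18.5 and 37.4 in SRF-RELA. Cdc45 and Gins2 were lowest in SRF-RELA replicate 2 and next lowest in pMSCV replicate 2.

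At the fork, Pcna is the sliding clamp of the polymerases, and Fen1 trims the flaps of lagging-strand fragments. Pcna was at 293, 155 and 257 CPM in pMSCV, 345, 334 and 276 in SRF, 203, 321 and 202 in SRF-FOXO1, 348, 258 and 238 in SRF-ICA1L, 281 and 222 in SRF-PDGFRB, and 411, 206 and 261 in SRF-RELA. Fen1 was at 4.24, 1.85 and 6.68 CPM in pMSCV, 5.04, 4.94 and 5.84 in SRF, 3.49, 4.08 and 4.19 in SRF-FOXO1, 6.60, 2.32 and 5.26 in SRF-ICA1L, 3.81 and 4.36 in SRF-PDGFRB, and 5.14, 2.65 and 4.62 in SRF-RELA. Pcna was highest in SRF-RELA replicate 1 and lowest in pMSCV replicate 2, and Fen1 spanned 3.61-fold at a low level. Deoxynucleotides are supplied by ribonucleotide reductase, whose subunits are Rrm1 and Rrm2, and by thymidylate synthase (Tyms). Rrm1 was at 366, 134 and 422 CPM in pMSCV, 418, 391 and 448 in SRF, 294, 344 and 370.4 in SRF-FOXO1, 450.2, 299 and 440.0 in SRF-ICA1L, 287 and 397 in SRF-PDGFRB, and 443, 239 and 450.0 in SRF-RELA. Rrm2 was at 371, 153 and 579 CPM in pMSCV, 453, 575 and 639.9 in SRF, 278, 478 and 493 in SRF-FOXO1, 487, 307 and 533 in SRF-ICA1L, 378 and 584 in SRF-PDGFRB, and 489.8, 236 and 595 in SRF-RELA. Tyms was at 63.9, 26.8 and 65.2 CPM in pMSCV, 65.7, 63.5 and 63.8 in SRF, 46.3, 47.5 and 68.8 in SRF-FOXO1, 65.4, 41.3 and 68.2 in SRF-ICA1L, 34.9 and 55.2 in SRF-PDGFRB, and 74.5, 36.1 and 71.9 in SRF-RELA. For these 3 enzymes pMSCV replicate 2 was the lowest library, and for Rrm2 the ratio of the highest library to the lowest was 4.18.

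Entry into S phase is driven by cyclin E (Ccne1 and Ccne2) and by the factor E2f1. Ccne1 was at 30.6, 12.1 and 44.9 CPM in pMSCV, 38.3, 47.7 and 43.8 in SRF, 23.8, 40.2 and 25.0 in SRF-FOXO1, 49.2, 34.8 and 39.1 in SRF-ICA1L, 28.4 and 32.3 in SRF-PDGFRB, and 48.1, 22.4 and 36.6 in SRF-RELA. Ccne2 was at 54.8, 8.95 and 43.6 CPM in pMSCV, 54.8, 55.0 and 57.8 in SRF, 34.3, 48.4 and 48.3 in SRF-FOXO1, 64.7, 26.4 and 49.4 in SRF-ICA1L, 42.2 and 46.3 in SRF-PDGFRB, and 59.9, 21.04 and 57.7 in SRF-RELA. E2f1 was at 61.4, 42.0 and 58.5 CPM in pMSCV, 74.4, 69.9 and 58.2 in SRF, 55.6, 75.2 and 48.3 in SRF-FOXO1, 73.3, 55.2 and 49.5 in SRF-ICA1L, 70.9 and 54.0 in SRF-PDGFRB, and 78.5, 48.2 and 55.8 in SRF-RELA. Ccne2 had the widest range of the 44 genes, 7.23-fold between pMSCV replicate 2 and SRF-ICA1L replicate 1, and E2f1 one of the narrowest, 1.87-fold. Uhrf1 maintains DNA methylation behind the fork, and Slbp binds the stem-loop of histone mRNAs. Uhrf1 was at 248, 108 and 309 CPM in pMSCV, 254, 288 and 289 in SRF, 181, 199 and 173 in SRF-FOXO1, 228, 168 and 273 in SRF-ICA1L, 155 and 216 in SRF-PDGFRB, and 269, 119 and 289 in SRF-RELA. Slbp was at 70.0, 50.5 and 65.4 CPM in pMSCV, 78.0, 78.7 and 74.3 in SRF, 52.0, 67.0 and 68.9 in SRF-FOXO1, 72.1, 52.0 and 66.4 in SRF-ICA1L, 62.4 and 61.3 in SRF-PDGFRB, and 70.8, 50.5 and 78.6 in SRF-RELA. Slbp varied least of all 44 genes (1.56-fold), and its SRF libraries lay above all pMSCV, SRF-FOXO1, SRF-ICA1L and SRF-PDGFRB libraries.

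Mitotic entry depends on Cdk1 with cyclin A (Ccna2) and cyclin B (Ccnb1 and Ccnb2). Cdk1 was at 205, 101 and 329 CPM in pMSCV, 217, 251 and 355 in SRF, 134, 185 and 176 in SRF-FOXO1, 224, 159.8 and 274 in SRF-ICA1L, 157 and 259.7 in SRF-PDGFRB, and 214, 120.5 and 281 in SRF-RELA. Ccna2 was at 308, 90.6 and 362 CPM in pMSCV, 328, 286 and 385 in SRF, 221, 227 and 292 in SRF-FOXO1, 290.4, 183 and 353 in SRF-ICA1L, 178 and 315 in SRF-PDGFRB, and 318, 144 and 419.6 in SRF-RELA. Ccnb1 was at 152, 54.4 and 212 CPM in pMSCV, 172, 189 and 221 in SRF, 133, 152 and 109 in SRF-FOXO1, 169, 119.7 and 176 in SRF-ICA1L, 130.4 and 160.2 in SRF-PDGFRB, and 172, 90.9 and 210.4 in SRF-RELA. In these 3 genes replicate 3 was the highest library of SRF-RELA, SRF-ICA1L, SRF and pMSCV, and pMSCV replicate 2 the lowest of all. Ccnb2 was at 63.2, 53.5 and 78.0 CPM in pMSCV, 77.9, 82.4 and 78.0 in SRF, 67.5, 66.1 and 57.4 in SRF-FOXO1, 61.1, 68.5 and 83.8 in SRF-ICA1L, 59.1 and 68.2 in SRF-PDGFRB, and 87.2, 59.2 and 91.4 in SRF-RELA. Ccnb2 varied less, 1.71-fold over the libraries. Exit from mitosis is driven by the anaphase-promoting complex, for which Cdc20 is an activator and Ube2c a ubiquitin-conjugating enzyme. Cdc20 was at 135, 57.6 and 212 CPM in pMSCV, 165, 158 and 199 in SRF, 110.5, 119.6 and 108 in SRF-FOXO1, 156, 98.5 and 178 in SRF-ICA1L, 91.1 and 135 in SRF-PDGFRB, and 158, 72.6 and 203 in SRF-RELA. Ube2c was at 134, 75.6 and 215 CPM in pMSCV, 141, 148 and 213 in SRF, 92.0, 108 and 88.2 in SRF-FOXO1, 133, 89.0 and 176 in SRF-ICA1L, 87.2 and 151 in SRF-PDGFRB, and 140.3, 71.1 and 177 in SRF-RELA. For both, pMSCV replicate 3 was the highest library, followed by SRF replicate 3 for Ube2c and by SRF-RELA replicate 3 for Cdc20.

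Plk1, Aurka and Aurkb are mitotic kinases, and Birc5 (survivin) belongs with Aurkb to the chromosomal passenger complex. Plk1 was at 106, 37.7 and 211 CPM in pMSCV, 112, 116 and 174 in SRF, 75.6, 92.8 and 88.4 in SRF-FOXO1, 111, 75.7 and 147 in SRF-ICA1L, 68.2 and 124 in SRF-PDGFRB, and 114, 56.1 and 166 in SRF-RELA. Aurka was at 65.3, 30.2 and 138 CPM in pMSCV, 87.5, 91.1 and 138 in SRF, 49.6, 73.9 and 59.0 in SRF-FOXO1, 96.6, 59.4 and 113 in SRF-ICA1L, 60.8 and 93.8 in SRF-PDGFRB, and 86.4, 38.5 and 118 in SRF-RELA. Plk1 and Aurka spanned 5.58-fold and 4.56-fold between libraries. Aurkb was at 66.0, 33.0 and 105 CPM in pMSCV, 71.2, 78.8 and 100.4 in SRF, 46.9, 47.6 and 67.0 in SRF-FOXO1, 56.7, 44.8 and 89.6 in SRF-ICA1L, 41.7 and 84.3 in SRF-PDGFRB, and 63.7, 33.7 and 86.4 in SRF-RELA. Birc5 was at 162, 71.6 and 221 CPM in pMSCV, 177, 169 and 226 in SRF, 116, 112 and 142 in SRF-FOXO1, 164, 104 and 232 in SRF-ICA1L, 96.2 and 196 in SRF-PDGFRB, and 179.6, 86.1 and 238 in SRF-RELA. For both genes the SRF-PDGFRB libraries differed widely, with replicate 2 inside the SRF range and replicate 1 lower than every library but those of pMSCV replicate 2 and SRF-RELA replicate 2. Bub1, Bub1b and Ttk act in the spindle checkpoint, which delays anaphase until chromosomes are attached. Bub1 was at 117, 46.0 and 126 CPM in pMSCV, 133, 124 and 144 in SRF, 75.5, 94.5 and 78.9 in SRF-FOXO1, 111, 80.0 and 127 in SRF-ICA1L, 75.7 and 118 in SRF-PDGFRB, and 116, 66.0 and 132 in SRF-RELA. Bub1b was at 128, 54.0 and 159.6 CPM in pMSCV, 152, 129.7 and 149 in SRF, 106, 109 and 102 in SRF-FOXO1, 116, 93.0 and 173 in SRF-ICA1L, 81.7 and 128 in SRF-PDGFRB, and 149, 85.9 and 177 in SRF-RELA. Ttk was at 53.6, 21.5 and 62.2 CPM in pMSCV, 60.0, 51.4 and 71.6 in SRF, 41.3, 43.8 and 50.1 in SRF-FOXO1, 53.5, 38.1 and 69.8 in SRF-ICA1L, 35.4 and 60.6 in SRF-PDGFRB, and 55.7, 29.8 and 75.4 in SRF-RELA. Every SRF-FOXO1 library lay below every SRF library for these 3 checkpoint genes.

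Cenpa is the histone H3 variant of centromeres, Cenpe a kinesin and Cenpf a protein of the kinetochore. Cenpa was at 99.4, 49.4 and 117 CPM in pMSCV, 95.9, 84.1 and 111 in SRF, 68.2, 55.1 and 74.9 in SRF-FOXO1, 84.2, 55.3 and 108 in SRF-ICA1L, 45.7 and 79.2 in SRF-PDGFRB, and 73.0, 49.3 and 122 in SRF-RELA. Cenpe was at 195, 80.3 and 272 CPM in pMSCV, 233, 223 and 318 in SRF, 147, 171 and 174 in SRF-FOXO1, 188, 142 and 299 in SRF-ICA1L, 147 and 244 in SRF-PDGFRB, and 182, 124 and 296 in SRF-RELA. Cenpf was at 165, 69.8 and 281 CPM in pMSCV, 199.9, 212 and 293 in SRF, 176, 193 and 259 in SRF-FOXO1, 178, 146 and 332 in SRF-ICA1L, 170.3 and 304 in SRF-PDGFRB, and 198, 128 and 338 in SRF-RELA. Cenpa was lowest in SRF-PDGFRB replicate 1, and Cenpf was highest in the replicates 3 of SRF-RELA and SRF-ICA1L. The motor Kif11 separates spindle poles, and Kif20a and Kif23 act in cytokinesis with the bundling protein Prc1. Kif11 was at 168, 68.6 and 209 CPM in pMSCV, 193, 191 and 232 in SRF, 148, 161 and 187 in SRF-FOXO1, 176, 138 and 235 in SRF-ICA1L, 135 and 216 in SRF-PDGFRB, and 186, 115 and 238 in SRF-RELA. Kif20a was at 148, 52.3 and 201 CPM in pMSCV, 174, 169 and 189.7 in SRF, 121, 156 and 121 in SRF-FOXO1, 168, 130.2 and 186 in SRF-ICA1L, 122 and 141 in SRF-PDGFRB, and 169, 105 and 207 in SRF-RELA. These 2 motors were lowest in pMSCV replicate 2 and highest in SRF-RELA replicate 3. Kif23 was at 145, 61.4 and 195 CPM in pMSCV, 154, 154 and 202 in SRF, 100.3, 110.3 and 120.5 in SRF-FOXO1, 143, 91.4 and 200.2 in SRF-ICA1L, 94.9 and 176 in SRF-PDGFRB, and 145, 74.4 and 207 in SRF-RELA. Prc1 was at 189.7, 74.9 and 265 CPM in pMSCV, 207, 189 and 282 in SRF, 131, 166 and 209.9 in SRF-FOXO1, 171, 125 and 266 in SRF-ICA1L, 134 and 248 in SRF-PDGFRB, and 168, 105 and 277 in SRF-RELA. Replicate 3 was the highest library of SRF-RELA, SRF-ICA1L, SRF and pMSCV for Kif23 and Prc1.

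Tpx2 and Nusap1 organise spindle microtubules, Top2a untangles chromosomes, and Mki67 coats them in mitosis. Tpx2 was at 248, 137 and 364 CPM in pMSCV, 307, 336 and 398 in SRF, 203, 280.5 and 215 in SRF-FOXO1, 311, 221 and 376 in SRF-ICA1L, 238 and 327 in SRF-PDGFRB, and 314, 174 and 379.9 in SRF-RELA. Nusap1 was at 70.6, 47.2 and 99.9 CPM in pMSCV, 80.3, 97.8 and 122 in SRF, 86.0, 102 and 145 in SRF-FOXO1, 71.5, 83.9 and 125 in SRF-ICA1L, 84.8 and 123 in SRF-PDGFRB, and 99.5, 72.0 and 133 in SRF-RELA. Nusap1 was highest in SRF-FOXO1 replicate 3, the 1 library of that group that was the highest of 17 for any of the 44 genes. Top2a was at 631, 293 and 948 CPM in pMSCV, 683, 749 and 993 in SRF, 479, 619.8 and 749 in SRF-FOXO1, 627, 528 and 997 in SRF-ICA1L, 503 and 924 in SRF-PDGFRB, and 686, 428 and 969 in SRF-RELA. Mki67 was at 622, 232 and 776 CPM in pMSCV, 665, 703 and 781 in SRF, 649.7, 692 and 866 in SRF-FOXO1, 666, 551 and 959.7 in SRF-ICA1L, 541 and 732 in SRF-PDGFRB, and 739, 444 and 1046 in SRF-RELA. For Top2a and Mki67 the SRF and SRF-FOXO1 ranges overlapped, as they did for Nusap1, Cenpf, Prc1 and Ccna2.

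The comparison with pMSCV asks whether SRF or a fusion changes these genes. With edgeR's quasi-likelihood test over all 17 libraries and Benjamini-Hochberg adjustment over 15062 genes, none of the 44 genes reached an adjusted p under 0.05 in SRF against pMSCV, where 0.00664% of all genes were called. None passed in SRF-FOXO1 (0.71% of all genes called, 0.359% higher and 0.352% lower), SRF-ICA1L (0%), SRF-PDGFRB (0.0199%) or SRF-RELA (0%) against pMSCV. At an unadjusted p under 0.05 the edgeR count of the 44 was 0 in each of these 5 comparisons, and DESeq2 called 0 in each. Over all 15062 genes edgeR counted 3151 with such a p for SRF-FOXO1, and from 503 to 1212 for each other group. DESeq2 called 9.07% of the genes it tested for SRF-FOXO1, and from 0.0266% to 0.725% for each other group. The 5 comparisons share the pMSCV libraries, and their values are therefore not independent of each other.

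In SRF against pMSCV the fitted values of all 44 genes were above 0, with medians of 0.33 (S-phase) and 0.38 (G2/M) on the log2 scale, against a median of -0.02 over all genes. The smallest unadjusted p-values were those of Mcm4 (log2 fold change 0.60 ± 0.29, SE, adjusted p = 0.990, edgeR) and Slbp (0.31 ± 0.19, SE, adjusted p = 0.990, edgeR). Of G2/M genes Ccnb2 (0.29 ± 0.18, SE), Nusap1 (0.46 ± 0.32) and Tpx2 (0.48 ± 0.34) came first, with the same adjusted p. The SRF libraries lay above all pMSCV libraries for 3 genes, Mcm4, Ccne2 and Slbp, where 4.02% of all genes were separated in that direction. Without pMSCV replicate 2 the medians were 0.08 and 0.03, and 28 of the 44 fitted values were above 0. Muscle markers moved the other way in the same comparison. All 13 measured muscle differentiation genes (median -1.99) and all 7 myoblast markers (median -0.74) had fitted values below 0, of which edgeR called 0. The summed level of the differentiation genes was 80.6 to 180 CPM in SRF and 261 to 475 CPM in pMSCV, without overlap. Their part in the difference of the cell cycle genes was not tested.

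The medians of the fusions were closer to 0. They were -0.07 (S-phase) and -0.11 (G2/M) in SRF-FOXO1, 0.14 and 0.14 in SRF-ICA1L, -0.04 and -0.0028 in SRF-PDGFRB, and 0.19 and 0.15 in SRF-RELA. Without pMSCV replicate 2 they were -0.35 and -0.46 in SRF-FOXO1, -0.15 and -0.20 in SRF-ICA1L, -0.34 and -0.34 in SRF-PDGFRB, and -0.09 and -0.20 in SRF-RELA. The SRF-ICA1L and SRF-RELA medians thus changed sign without that control library. Those of SRF-FOXO1 and SRF-PDGFRB changed sign without another one: without pMSCV replicate 3 they were 0.14 and 0.26 in SRF-FOXO1, and 0.19 and 0.41 in SRF-PDGFRB. No gene of the 44 was separated from pMSCV in either direction in any fusion, against 11.4% of all genes higher and 11.6% lower in SRF-FOXO1, 4.67% and 5.54% in SRF-ICA1L, 8.67% and 7.23% in SRF-PDGFRB, and 5.19% and 5.91% in SRF-RELA. The gene closest to the threshold was Nusap1 in SRF-FOXO1 (0.62 ± 0.32, SE, adjusted p = 0.287, edgeR), above pMSCV on average while Ube2c (-0.56 ± 0.39) and Cdt1 (-0.53 ± 0.30) were below.

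**Figure D3:**
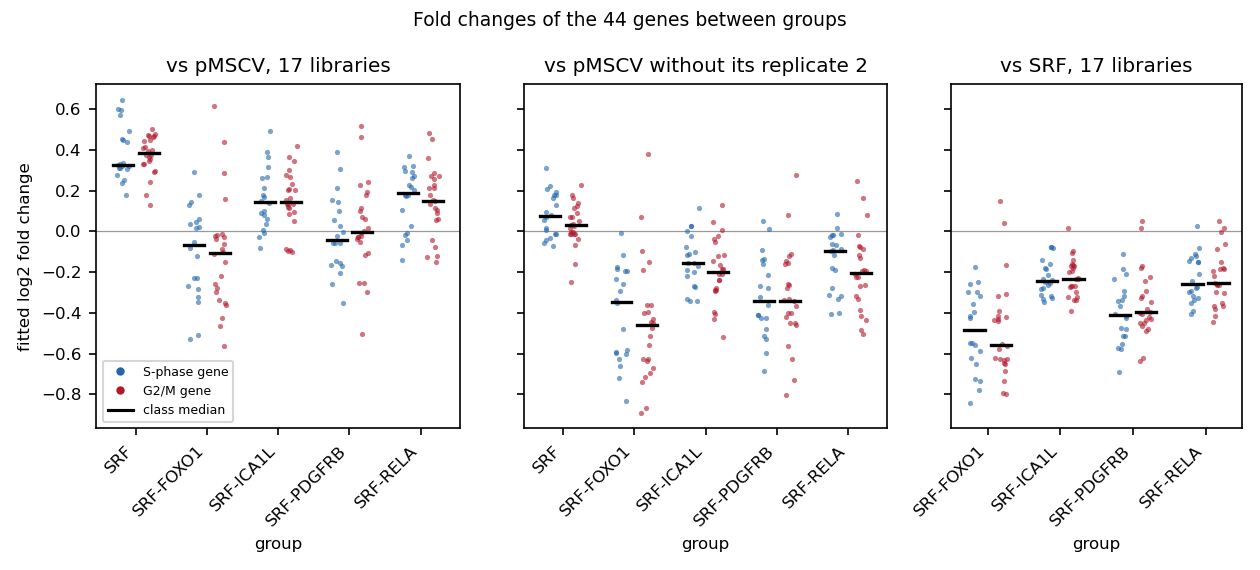
Fitted log2 fold changes of the 20 S-phase genes (blue) and 24 G2/M genes (red) against pMSCV with all 17 libraries (left) and without pMSCV replicate 2 (middle), and against SRF (right); black bars are class medians. In SRF the medians move from 0.33 and 0.38 to 0.08 and 0.03 when the library is left out, and in SRF-FOXO1 against SRF they lie at -0.49 and -0.56.

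Against SRF, whose 3 libraries were close together in the S-phase class, the class medians of all 4 fusions were below 0 over 17 libraries. Those of SRF-RELA were not when its replicate 2 was left out (0.011 and 0.048). No gene of the 44 passed the edgeR test in SRF-FOXO1 against SRF (0.00664% of all genes called), SRF-ICA1L (0%), SRF-PDGFRB (0.0531%, with 0.0465% higher) or SRF-RELA (0.00664%). DESeq2 also called 0 of the 44 in each. Of the genes it tested, it called 3.97% for SRF-FOXO1 (1.27% lower), and from 0.0133% to 0.386% for each other fusion. At an unadjusted p under 0.05 edgeR counted 4 genes lower in SRF-FOXO1 (DESeq2 5) and 0 in the others. Over all 15062 genes edgeR counted 2895 with such a p for SRF-FOXO1 against SRF, and from 235 to 757 for each other fusion. The 4 comparisons share the SRF libraries.

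Over 17 libraries SRF-FOXO1 had the lowest medians against SRF. With no library numbered 2, SRF-PDGFRB had the lower G2/M median, -0.88 against -0.59 in SRF-FOXO1. It was then left with 1 library, replicate 1, the lower of its pair for all 24 G2/M genes. Of the SRF-FOXO1 fitted values 42 of 44 were below 0, with medians of -0.49 (S-phase) and -0.56 (G2/M) against 0.01 over all genes. The SRF-FOXO1 libraries lay below all SRF libraries for 14 of 20 S-phase genes and 18 of 24 G2/M genes, where 18.3% of all genes were separated in that direction. The smallest p-values were those of licensing and helicase genes: Cdt1 (-0.78 ± 0.30, SE, adjusted p = 0.214, edgeR), Cdc45 (-0.62 ± 0.27), Mcm2 (-0.84 ± 0.37) and Mcm4 (-0.65 ± 0.29, adjusted p = 0.249). Among G2/M genes they were those of Ube2c (-0.80 ± 0.39, SE), Bub1 (-0.69 ± 0.34) and Cdk1 (-0.73 ± 0.39). Mki67 (0.04 ± 0.38), often used to mark dividing cells, and Nusap1 (0.15 ± 0.32) were the 2 genes not below SRF. With the SRF and SRF-FOXO1 libraries alone in the fit, edgeR called 2 of the 44, Mcm2 (-0.83, adjusted p = 0.0454) and Bub1 (-0.68, adjusted p = 0.0485), where 1.51% of all genes were called lower. Myoblast markers moved with this difference: their summed level was 164 to 210 CPM in SRF-FOXO1, 608 to 1230 CPM in SRF and 1213 to 1669 CPM in pMSCV. Muscle differentiation genes summed to 59.5 to 101 CPM in SRF-FOXO1 and 80.6 to 180 CPM in SRF, which overlap. Their median fitted value was -0.34, with 11 of 13 below 0. Fibroblast markers summed to 277, 105 and 1928 CPM in SRF-FOXO1 replicates 1, 2 and 3. In SRF they summed to 78.4 to 149 CPM, which overlaps SRF-FOXO1. The part of these markers in the difference was not tested.

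SRF-PDGFRB had medians of -0.41 and -0.40 against SRF, and its 2 libraries lay below all SRF libraries for 15 S-phase and 7 G2/M genes, where 12.7% of all genes were so separated. Mcm4 (-0.57 ± 0.33, SE), Mcm2 (-0.69 ± 0.42) and Cenpa (-0.64 ± 0.41) were among the genes with the smallest p. SRF-ICA1L (medians -0.24 and -0.23) lay below SRF without overlap for Mcm2, Cdt1 and Slbp (3.2% of all genes), and SRF-RELA (medians -0.26 and -0.26) for Cdt1 (5.04%). Single libraries moved these medians. Leaving out 1 library at a time gave G2/M medians of -0.80 to -0.093 in SRF-PDGFRB, without its replicates 2 and 1, of -0.48 to -0.021 in SRF-ICA1L, without its replicates 3 and 2, and of -0.55 to 0.048 in SRF-RELA, without its replicates 3 and 2. The S-phase medians ran from -0.55 to -0.33, from -0.36 to -0.10 and from -0.44 to 0.011. Cdt1 in these 2 groups was at 77.9 ± 6.44 and 74.7 ± 12.7 CPM against 98.1 ± 16.2 CPM in SRF (mean ± SD, n = 3 each). The values of Bub1 were -0.34 ± 0.34 and -0.35 ± 0.34 (log2 fold change ± SE), within the error of the fit.

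The 12 libraries of SRF-RELA, SRF-ICA1L, SRF and pMSCV showed shared deviations between libraries of the same number, although the labels do not say what a number marks. SRF-FOXO1 did not show them against every other group and was left out, as was SRF-PDGFRB with its 2 libraries, so the shares and contrasts that follow describe 12 libraries chosen for that feature. In them the replicate number held a median of 56.1% of a gene's variance of log2 CPM in the S-phase class, 68.0% in the G2/M class and 49.6% over all genes. The group held 16.5%, 14.5% and 19.5%. A high share for the number, and low adjusted p-values between numbers, follow in part from the choice of libraries. The contrasts between numbers are therefore no independent test of such differences. With group and replicate number in 1 edgeR fit, replicate 2 was below replicate 1 for all 44 genes, and 30 passed an adjusted p under 0.05 (16 S-phase, 14 G2/M), where 16.9% of all genes were called lower. Mcm7 (-0.80 ± 0.18, SE, adjusted p = 0.00883), Ttk (-0.71 ± 0.17, adjusted p = 0.0108) and Mcm2 (-0.85 ± 0.21, adjusted p = 0.0133) had the smallest p in that edgeR fit. Ccne2 fell by 1.27 on the log2 scale. Genes that did not pass included Cdk1 (-0.51 ± 0.19), Mki67 (-0.55 ± 0.22), Ccnb1 (-0.64 ± 0.24), Ccne1 (-0.60 ± 0.29) and Cdt1 (-0.09 ± 0.18).

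The difference between replicates 1 and 2 was uneven across groups. Replicate 2 was the lowest of its group for 44 of 44 genes in pMSCV and in SRF-RELA, for 17 of 20 S-phase and 22 of 24 G2/M genes in SRF-ICA1L, and for 7 of 20 and 11 of 24 in SRF. As a fold of the mean of the other libraries of the group, the class medians of replicate 2 were 0.406 and 0.370 in pMSCV, 0.506 and 0.493 in SRF-RELA, 0.682 and 0.627 in SRF-ICA1L, and 0.994 and 0.876 in SRF. The count of called genes was 13 of 44 without pMSCV (12.7% of all genes called lower), 41 without SRF (18.2%), 0 without SRF-ICA1L (3%) and 0 without SRF-RELA (3.19%). The S-phase and G2/M medians in those last fits were -0.67 and -0.66, and -0.48 and -0.55, against -0.62 and -0.59 with all 12 libraries. With SRF-FOXO1 added (15 libraries) the count was 1 (3.81%) and the medians were -0.43 and -0.41. In SRF-FOXO1 replicate 2 was the lowest for 0 of 20 S-phase and 2 of 24 G2/M genes.

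Between replicates 3 and 1 the classes differed in their medians, with few genes called in either. All 24 G2/M genes were higher in replicate 3 (median 0.41), and 3 passed, Nusap1 (0.57 ± 0.15, SE, adjusted p = 0.0235, edgeR), Cenpf (0.75 ± 0.20, adjusted p = 0.0292) and Cenpe (0.57 ± 0.18, adjusted p = 0.0487), where 8.54% of all genes were called higher. The S-phase median was 0.01, with 10 genes above 0 and 10 below, and edgeR called 0 of them (9.1% of all genes called lower); 2 S-phase genes had an unadjusted p under 0.05, and the 10 genes that DESeq2 called were all higher in replicate 3. Pcna (-0.43 ± 0.17) and E2f1 (-0.37 ± 0.13, adjusted p = 0.0709, edgeR) had the smallest p of the class and were lower in replicate 3. In pMSCV, SRF-ICA1L and SRF-RELA replicate 3 was the highest of its group for 24 of 24 G2/M genes, in SRF for 22 of 24 and in SRF-FOXO1 for 13 of 24. The 3 calls were lost without SRF-ICA1L and without SRF-RELA (0 called in each), while the G2/M median was 0.43 and 0.42 in those fits and 24 of 24 genes stayed above 0.

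Replicate 3 against replicate 2 gave the widest difference. All 44 genes were higher in replicate 3, and 37 rose past the threshold (14 S-phase, 23 G2/M), where 19.7% of all genes were called higher. Prc1 (1.197 ± 0.18, SE, adjusted p = 0.00107), Cenpa (0.97 ± 0.15, adjusted p = 0.00112) and Ube2c (1.06 ± 0.16, adjusted p = 0.00120) had the smallest p in edgeR's fit. Of the S-phase genes Cdc6 rose by 1.23 ± 0.24 (SE) and Gins2 by 0.64 ± 0.15. E2f1 (0.06 ± 0.13), Cdt1 (0.12 ± 0.18) and Pcna (0.15 ± 0.17) were the 3 genes with the largest p. The medians were 0.72 (S-phase) and 1.03 (G2/M).

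**Figure D4:**
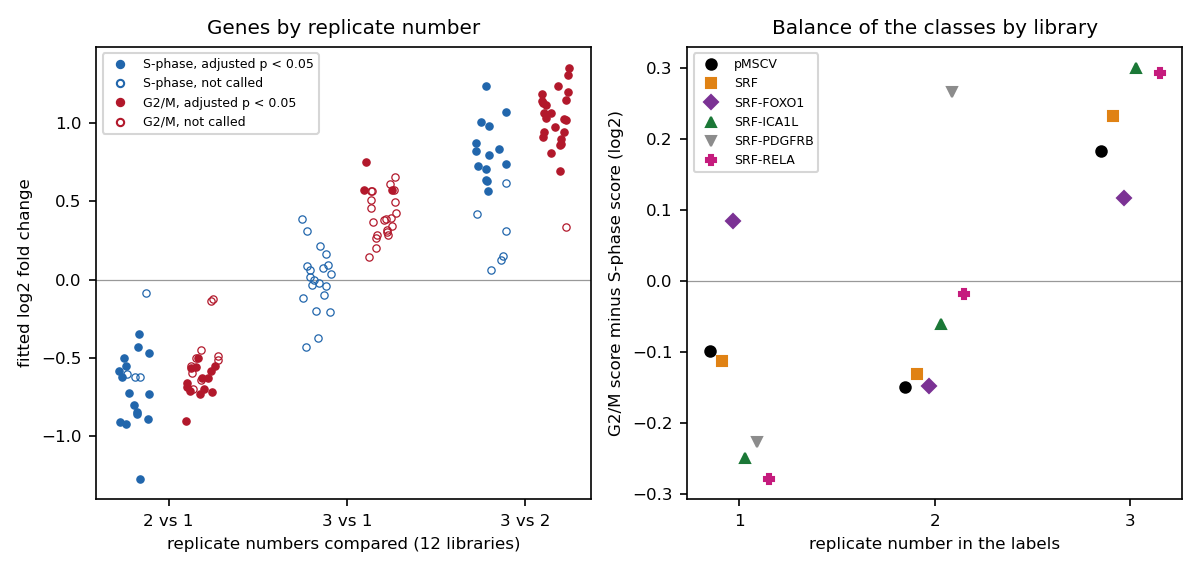
Left: fitted log2 fold changes of the S-phase (blue) and G2/M (red) genes between replicate numbers in the 12 libraries of SRF-RELA, SRF-ICA1L, SRF and pMSCV, filled where the adjusted p was under 0.05. Right: G2/M score minus S-phase score of each library (mean log2 CPM of the class relative to the mean over 17 libraries) by replicate number, one symbol per group; the replicates 3 of SRF-RELA, SRF-ICA1L, SRF and pMSCV lie between 0.18 and 0.30 and their replicates 1 between -0.28 and -0.10.

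The balance between the classes was described by the G2/M score minus the S-phase score of a library, where a score is the mean log2 CPM of the class relative to the 17-library mean. In the 12 libraries it was -0.28 to -0.10 in replicates 1, -0.15 to -0.02 in replicates 2 and 0.18 to 0.30 in replicates 3. Replicates 3 therefore did not overlap replicates 1 or 2 of these 4 groups. SRF-FOXO1 did not follow this order, with 0.08, -0.15 and 0.12 in replicates 1, 2 and 3. SRF-PDGFRB was at -0.23 in replicate 1 and 0.27 in replicate 2, and in that pair all 24 G2/M genes were higher in replicate 2 (median 1.65-fold) and 16 of 20 S-phase genes were (median 1.16-fold). Muscle differentiation genes moved with that pair: 13 of 15 were in the table, with a summed level of 20.1 CPM in replicate 1 and 978 CPM in replicate 2, and Myog was at 0.230 and 85.5 CPM. The 7 myoblast markers summed to 83.3 and 1860 CPM. The part of either in the difference was not tested.

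With replicate number as a term, the biological coefficient of variation was 18.6% in these 12 libraries, against 36.5% over 17 libraries without the term. These fits differ in their libraries as well as in the term, so the lower spread cannot be credited to the term alone. In the fit of 12 libraries edgeR still called 0 of the 44 in SRF against pMSCV (0.0133% of all genes called). At an unadjusted p under 0.05 it counted 26 of the 44 (10 S-phase, 16 G2/M), all higher, and 2227 of 15062 genes in either direction. The medians were 0.48 and 0.52. Cenpe (0.64 ± 0.21, SE), Nusap1 (0.51 ± 0.17) and Tpx2 (0.59 ± 0.20) had the smallest p, with adjusted p-values of 0.259 to 0.271 (edgeR). The fit takes the difference between numbers as equal in every group. The fold of replicate 2 over its group's other libraries was 0.406 and 0.370 in pMSCV and 0.994 and 0.876 in SRF. Without pMSCV replicate 2, in a fit of group alone, the medians were 0.08 and 0.03 and 0 of the 44 had such an unadjusted p. With replicate number in the fit, none of the 44 was called in SRF-ICA1L (2.81% of all genes, 1.6% lower) or SRF-RELA (6.07%, 2.85% higher) against pMSCV. None was called in those groups against SRF (0.0929%, with 0.0398% lower, and 0.657%, with 0.498% higher). At an unadjusted p under 0.05 edgeR counted 1 of the 44 in each of these comparisons except SRF-RELA against SRF, where it counted 5. Over all 15062 genes it counted 2821 and 3327 against pMSCV and 1367 and 2564 against SRF.

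Leaving out every library numbered 2, an alternative chosen after the data were seen, moved the SRF-FOXO1 comparisons. This takes out pMSCV replicate 2, the lowest of the 17 libraries for 38 of the 44 genes. It also takes out SRF-FOXO1 replicate 2, the highest of its group for 13 of 20 S-phase and 10 of 24 G2/M genes. Lower SRF-FOXO1 levels in these fits follow in part from that choice, so the calls are no separate support for them. Against pMSCV 9 of the 44 genes were called lower (8.94% of all genes), namely Mcm2, Mcm3, Mcm5, Mcm7, Cdc6, Cdt1, Cdc45, Uhrf1 and Bub1. Against SRF 10 were called lower (6.07% of all genes), the same genes and Mcm4. Cdt1 then stood at -1.199 ± 0.16 against pMSCV and -1.12 ± 0.16 against SRF (log2 fold change ± SE, adjusted p = 0.00596 and 0.0114, edgeR). Mcm2 stood at -0.93 ± 0.13 and -0.98 ± 0.13 (adjusted p = 0.00638 and 0.00993, edgeR). In SRF-PDGFRB, left with replicate 1 alone, Mcm2 stood at -0.89 against pMSCV and -0.94 against SRF (log2 fold change). The library taken out, its replicate 2, deviated with the replicates 3 of SRF (r = 0.523), SRF-ICA1L (0.637), SRF-RELA (0.504) and less so pMSCV (0.249). With their replicates 2 its r was -0.392, -0.386, -0.196 and -0.086. It was the higher of its pair for all 24 G2/M genes. The values without it therefore rest on 1 library, the lower of the pair. In SRF, SRF-ICA1L and SRF-RELA against pMSCV, and in SRF-ICA1L and SRF-RELA against SRF, edgeR called 0 of the 44 in this setting and 0 had an unadjusted p under 0.05.

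Other genes of both pathways were measured from lists kept apart from the 44. All 30 further replication genes and all 34 further mitosis genes were in the table. In the 9 group comparisons over 17 libraries edgeR called 0 of these genes. The highest count at an unadjusted p under 0.05 was that of SRF-FOXO1 against SRF, with 5 replication and 2 mitosis genes lower. In that comparison 2895 of all 15062 genes had such a p, in either direction. In SRF against pMSCV their medians were 0.44 (replication) and 0.34 (mitosis), and in SRF-FOXO1 against SRF -0.49 and -0.48, close to those of the 44. Between replicates 2 and 1 edgeR called 22 of 30 replication genes and 20 of 34 mitosis genes lower (16.9% of all genes). Between replicates 3 and 2 it called 22 and 33 higher (19.7% of all genes). Between replicates 3 and 1 the medians of these further genes were 0.07 (replication) and 0.26 (mitosis), against 0.01 and 0.41 for the 44. In that contrast edgeR called 3 mitosis genes higher, and 1 replication gene higher and 1 lower. Of all genes 8.54% were called higher and 9.1% lower. Hmmr, a spindle protein (0.78 ± 0.19, SE, adjusted p = 0.0182, edgeR), and Orc6, a subunit of the origin recognition complex (-0.58 ± 0.12, adjusted p = 0.00970, edgeR), were among them. Orc6 was also the 1 gene of these lists called between groups in the fit with replicate number (SRF-RELA against pMSCV, 0.74 ± 0.14, adjusted p = 0.0146, edgeR).

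In the promoters of these further genes the CHR was in 18 of 28 windows of mitosis genes and 1 of 24 of replication genes (17.9% of all windows). The E2F site was in 10 of 24 windows of replication genes and 2 of 28 of mitosis genes (2.27% of all). The CCAAT box did not separate them, at 16 of 28 and 13 of 24 windows (37.4% of all), and CHR with CCAAT was in 12 of 28 and 1 of 24 (6.95% of all).

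Regulators of the cycle were measured from a list of 25, of which 22 were in the table. Between replicates 2 and 1 edgeR called 8 lower and 3 higher, where 16.9% and 17.9% of all genes were called. Cdkn1a (p21), an inhibitor of cyclin-dependent kinases, was at 283, 357 and 220 CPM in pMSCV, 209, 323 and 178 in SRF, 216, 390 and 165 in SRF-ICA1L, and 202, 374 and 150 in SRF-RELA. Replicate 2 was the highest library of each of these groups, and of SRF-FOXO1 (155, 506 and 185 CPM), but not of SRF-PDGFRB (470 and 340 CPM). Cdkn1a rose by 0.68 ± 0.12 (SE, adjusted p = 0.00352, edgeR) between replicates 1 and 2. Ccnd1 (cyclin D1) was at 526, 135 and 584 CPM in pMSCV, 448, 435 and 549 in SRF, 345, 204 and 469 in SRF-ICA1L, and 365, 172 and 561 in SRF-RELA. Replicate 2 was the lowest library of each of these groups, by little in SRF. Ccnd1 fell by 0.91 ± 0.27 (SE), and the factors E2f2 by 1.004 ± 0.11, E2f4 by 0.76 ± 0.13, Mybl2 (B-Myb) by 1.22 ± 0.31 and Foxm1 by 0.79 ± 0.24 on the log2 scale between replicates 1 and 2. Of the replication genes outside the 44, Gins3 (-0.83 ± 0.14) and Dut (-0.70 ± 0.13) had the smallest p.

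Markers of other states moved with the replicate number too. Fibroblast markers summed to 66.3 to 116 CPM in replicates 1, 104 to 516 CPM in replicates 2 and 104 to 313 CPM in replicates 3 of the 12 libraries. Muscle differentiation genes summed to 94.5 to 381, 80.6 to 423 and 54.8 to 475 CPM, which overlap, and Myog, the myogenic factor that marks differentiation, was at 11.02, 13.6 and 22.4 CPM in pMSCV and at 1.97 to 6.23 CPM in SRF. In replicate 2 against 1 edgeR called 0 of 13 muscle differentiation genes, with 0 at an unadjusted p under 0.05, although all 13 fitted values were above 0 (median 0.42). Of all 15062 genes, 6982 had such a p. In that contrast edgeR called 3 of 5 fibroblast and 3 of 7 myoblast markers higher, where 17.9% of all genes were called higher. In replicate 3 against 1 it called 6 of 7 myoblast markers higher (median 0.89), where 8.54% of all genes were called higher. Of the differentiation genes it called Myog (1.42 ± 0.40, SE, adjusted p = 0.0346, edgeR). Myoblast markers summed to 279 to 1213 CPM in replicates 1, 491 to 1251 CPM in replicates 2 and 608 to 1669 CPM in replicates 3. The part of these in the differences of the cell cycle genes was not tested, and culture state, RNA preparation and other conditions that a number may stand for cannot be told apart.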

How the data were processed

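The 17 C2C12 libraries came from a TruSeq kit that keeps strand and selects mRNA, and were read on a NovaSeq, per the labels' protocols. The authors deposited raw counts per gene. Per the submitters' processing notes the tools were FastQC 0.11.8, Trimmomatic 0.39, HISAT2 and featureCounts of Subread 2.0.0 with GRCm38. The strand setting of the counting is not given in the sources used here. Every gene of the table had at least 10 counts in at least 3 libraries, as the values show; no source used here states the filter. All count columns matched a sample, and counts in entries without a gene symbol were at most 1.13% of a library.

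From the deposited counts, edgeR 4.0.16 (R 4.3.3, limma 3.58.1) was run with TMM scaling, a robust quasi-likelihood fit of group over all 17 libraries, and Benjamini-Hochberg adjustment over 15062 genes, and an adjusted p under 0.05 was a call. Each standard error is the absolute log2 fold change divided by the square root of the test's F. CPM uses TMM-scaled library sizes, and log2 CPM a prior count of 2. The fit was also run on simulated data with planted changes, and the share recovered is not given here. A gene that was not called was therefore not shown to be unchanged. Alternatives were DESeq2 1.42.0 and its size factors, library totals alone, a filter of 50 counts in 3 libraries, the 2 groups alone, a replicate block and leaving out each library.

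The 44 genes and all other lists were chosen with earlier results of these data known. All 44 could be named; of other genes, up to 5 called ones per comparison by smallest p and Cdkn1a, Ccnd1, Myog, Foxm1 and Mybl2 in any case. Same-numbered libraries of SRF-RELA, SRF-ICA1L, SRF and pMSCV deviated together (r of 0.392 to 0.789 across genes, against at most 0.114 for other numbers). This pairing was seen in the data and is not stated in the labels. SRF-FOXO1 shared it only in part (-0.195 to 0.501). Its replicate 3 reached 0.330 with SRF, 0.501 with SRF-ICA1L and 0.454 with SRF-RELA, but 0.013 with pMSCV. Replicate number was therefore a term in the fit of those 12 libraries. Depth ran from 20901442 to 23543734 counts per library.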

Additional observations from a re-analysis of the deposited data

How the results depend on the processing

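Over 17 libraries the count of called genes was 0 of 44 in the 9 group comparisons under DESeq2, its size factors, library totals alone, the stricter filter and the replicate block over all 17 libraries, and 0 to 0 when each library was left out in turn. An exception was SRF-FOXO1 against SRF in the 2 groups alone (2 genes). Another was the fit with no library numbered 2, chosen after the data were seen. It called 9 and 10 genes for SRF-FOXO1 against pMSCV and SRF, with pMSCV replicate 2, low in most genes, taken out. It left SRF-PDGFRB with 1 library, its replicate 1, for which only effect sizes are given: the G2/M median against pMSCV became -0.73. The replicate block (12 libraries) gave S-phase and G2/M medians of 0.48 and 0.52 in SRF against pMSCV and changed no other call among the 44 genes. Without pMSCV replicate 2, in the fit of group alone, those medians were 0.08 and 0.03. Counts between replicate numbers were less stable. For replicate 3 against 1 they were 6 with the other size factors, 10 with DESeq2, 6 without pMSCV, and 0 without SRF-ICA1L or SRF-RELA. Of all genes DESeq2 called 11.2% higher and 10.4% lower in that contrast. The shares of all genes in its other settings are not given here. For replicate 2 against 1 they were 13 without pMSCV, 0 without SRF-ICA1L or SRF-RELA and 1 with 15 libraries, while the medians were -0.67 and -0.66, -0.48 and -0.55, and -0.43 and -0.41, and the share of all genes called lower was 3%, 3.19% and 3.81% in place of 16.9%. For 3 against 2 they were 23 without SRF-RELA and 23 with 15 libraries. Shares of all genes in those fits are not given, so the lower counts are not read as particular to the 44. The cause was not tested.

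With 1 library left out, class medians changed sign against pMSCV in every fusion and against SRF in SRF-RELA (to 0.011 and 0.048). Some single values near 0 changed sign too. When libraries were left out in turn, the range against pMSCV was -0.050 to 0.63 for Kif11 in SRF-ICA1L, and in SRF-RELA -0.019 to 0.52 for Mcm4 and -0.068 to 0.59 for Rrm1; the lowest value was in each case that without pMSCV replicate 2. In SRF-PDGFRB it was -0.012 to 0.40 for E2f1 (lowest without SRF-PDGFRB replicate 1) and -0.014 to 1.01 for Cenpf (lowest without its replicate 2), and in SRF-RELA -0.010 to 0.52 for Pcna (lowest without its replicate 1). With no library numbered 2, Rrm2, Nusap1 and Cenpf in SRF-PDGFRB against pMSCV stood at -0.33, -0.012 and -0.39. Groups of 3 or 2 libraries limit the precision, and depth limits it for Fen1, with 42 to 143 counts per library.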
